A study of Mus musculus with 16 samples.

Results

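The Hox genes of the 4 mouse clusters were examined here as a group of 38 genes among 21887 protein-coding genes of the RefSeq table. They were taken by name: 10 in HoxA on chromosome 6, 10 in HoxB on chromosome 11, 9 in HoxC on chromosome 15 and 9 in HoxD on chromosome 2. Chromatin immunoprecipitation with sequencing (ChIP-seq) peak lists of 3 histone marks were read over each gene with 1 kb on either side, and over each cluster as a whole. The libraries came from Mettl14 CKO mouse embryonic stem cells (mESCs, written KO below) and from Mettl14 Control mESCs, with 2 libraries of each genotype per mark. METTL14 works with METTL3 in the enzyme complex for N6-methyladenosine on RNA, and the series asked which histone modifications change without it. Cells of both genotypes were of the C57BL/6 strain and grew in serum medium with LIF, CHIR99021 (a GSK3 inhibitor) and PD0325901 (a MEK inhibitor). The labels do not give the Cre driver, the number of clones or the time since deletion.

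Hox genes encode homeodomain transcription factors that give cells their position along the head-to-tail axis. Paralogs with low numbers act in the hindbrain and neck, and those with high numbers in the lumbar, sacral and tail region, the limbs and the genital tract. In embryonic stem cells the clusters are silent and are textbook targets of Polycomb repressive complex PRC2, which lays down H3K27me3. Trimethylated H3K4 (H3K4me3) lies at active and poised promoters, promoters with H3K4me3 and H3K27me3 together are called bivalent, and H3K27ac lies at active promoters and enhancers.

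The deposited lists give the position and width of each peak and nothing of its height, so the measure used below is the number of bases called. Read depth is not known for any list, which leaves counting error without an interval. The labels name replicates without saying that they were separate cultures, so the p-values measure a spread that may be technical. With 2 lists against 2, the exact two-sided permutation test cannot give a p below 0.333, so none of the permutation tests below can pass a threshold of 0.05. In bulk chromatin, more cells with a mark and more of the mark in each cell cannot be told apart.

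Whole lists differed in length. The H3K27me3 lists covered 10.1 and 10.5 Mb in KO cells, against 4.47 and 5.13 Mb in Control cells, a 2.15-fold difference. The H3K4me3 lists covered 8.13 and 7.89 Mb in KO cells, against 1.78 and 1.56 Mb in Control cells. The H3K27ac lists were closer, at 15.9 and 16 Mb in KO cells and 15.2 and 13.3 Mb in Control cells. Of 10 mESC marker genes, 9 carried H3K27ac in both KO lists and 8 in both Control lists. In both KO lists H3K27ac lay at 1 of 10 fibroblast, 2 of 8 trophectoderm and 1 of 8 primitive endoderm markers, against 1, 1 and 1 in both Control lists. The H3K27ac libraries carry the H3K4me3 antibody name in the labels, and the mark in their titles was used. Mettl14 (chr3:123368295-123385990) had H3K4me3 peaks in both KO lists and in neither Control list, which cannot check the deletion.

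The promoters that best show where H3K27me3 lay are given first. RefSeq (build GRCm38.p6, the assembly of mm10) supplied promoter windows of 300 bases, from 250 before to 50 after a transcription start, for 22 of the 38 members (24 windows). Of these, 5 windows of 4 genes were touched by an H3K27me3 peak in both KO lists, against 1.92% of all 32851 promoter windows. Only 1 member window, at Hoxa7, was touched in both Control lists, against 0.457% of all windows. The 5 windows are printed 5′ to 3′ on the gene's strand, in lower case with every CG in capitals, because CG-rich promoters are the usual home of PRC2 in stem cells. They belong to Hoxd13 on the plus strand (chr2:74667975-74668274), Hoxa9 on the minus strand (chr6:52227321-52227620) and Hoxa10 on the minus strand (the outer start chr6:52240805-52241104, the inner start chr6:52234890-52235189). The last belongs to Hoxb8 on the plus strand (chr11:96281655-96281954).
Hoxd13: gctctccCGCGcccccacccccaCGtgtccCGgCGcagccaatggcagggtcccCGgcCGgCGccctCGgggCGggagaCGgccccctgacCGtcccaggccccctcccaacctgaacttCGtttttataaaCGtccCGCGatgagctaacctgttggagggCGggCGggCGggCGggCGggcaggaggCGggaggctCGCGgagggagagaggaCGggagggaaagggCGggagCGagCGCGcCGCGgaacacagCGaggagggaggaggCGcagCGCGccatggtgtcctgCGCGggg
Hoxa9: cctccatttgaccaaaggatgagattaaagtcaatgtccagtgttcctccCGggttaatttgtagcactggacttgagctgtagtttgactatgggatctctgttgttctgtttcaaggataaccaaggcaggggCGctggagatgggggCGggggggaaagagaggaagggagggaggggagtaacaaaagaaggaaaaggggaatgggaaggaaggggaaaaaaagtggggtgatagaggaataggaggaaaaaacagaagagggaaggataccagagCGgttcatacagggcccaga
Hoxa10 outer: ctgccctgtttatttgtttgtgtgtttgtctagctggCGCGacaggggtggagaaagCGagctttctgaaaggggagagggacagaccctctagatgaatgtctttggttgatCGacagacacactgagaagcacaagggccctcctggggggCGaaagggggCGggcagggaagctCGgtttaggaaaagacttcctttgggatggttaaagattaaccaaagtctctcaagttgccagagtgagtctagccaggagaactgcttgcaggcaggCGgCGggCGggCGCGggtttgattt
Hoxa10 inner: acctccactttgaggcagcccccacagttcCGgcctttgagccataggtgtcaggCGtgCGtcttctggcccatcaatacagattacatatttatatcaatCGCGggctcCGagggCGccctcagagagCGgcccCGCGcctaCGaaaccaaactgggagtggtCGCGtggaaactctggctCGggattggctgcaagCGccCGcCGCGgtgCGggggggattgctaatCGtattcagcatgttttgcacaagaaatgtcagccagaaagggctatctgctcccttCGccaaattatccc
Hoxb8: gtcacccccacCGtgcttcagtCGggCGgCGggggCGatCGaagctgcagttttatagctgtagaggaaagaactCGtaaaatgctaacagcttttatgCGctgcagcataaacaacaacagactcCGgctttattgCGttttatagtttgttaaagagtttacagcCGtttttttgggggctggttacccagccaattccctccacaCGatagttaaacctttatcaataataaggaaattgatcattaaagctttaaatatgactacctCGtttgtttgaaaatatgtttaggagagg

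These windows held 37 CG at Hoxd13, 4 at Hoxa9, 12 and 21 at the outer and inner Hoxa10 starts, and 13 at Hoxb8. The motif searched was CG, which reads the same on both strands, and 94.6% of all promoter windows hold at least 1. The member windows had a median of 14.5 CG and a range of 4 to 45, against a median of 7 over all windows. At Hoxd13, H3K27me3 covered 300 and 300 of the 300 bases in KO lists, against 0 and 0 in Control lists. The Hoxb8 window had 300 and 72 bases in KO lists and 0 and 0 in Control lists. Hoxa9 had 236 and 176 bases in KO lists and 0 and 300 in Control lists, so its groups overlapped. The inner Hoxa10 window had 300 and 300 bases in KO lists and 184 and 0 in Control lists, and the outer had 56 and 300 bases in KO lists and 0 and 72 in Control lists. These windows were chosen by their calls in the KO lists, so their order between genotypes is a description only. The Hoxa7 window, chosen by the Control lists, had 0 and 229 bases in KO lists and 209 and 300 in Control lists. The Hoxa13 window, which holds the 45 CG, was untouched by H3K27me3 in all 4 lists.

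H3K27me3 covered more of each cluster in both KO lists than in either Control list. The clusters were measured from the first to the last member with 1 kb on either side: HoxA chr6:52161417-52261880, HoxB chr11:96193316-96369254, HoxC chr15:102920131-103037856 and HoxD chr2:74667225-74766142. HoxA, which patterns axis, limb and genital tract, was called over 41.5 and 34.3% of its span in KO lists, against 13 and 21.2% in Control lists. Its mean was 37.9 ± 5.06% in KO cells and 17.1 ± 5.81% in Control cells (SD, n = 2 each), a 2.22-fold difference. The difference of 20.8 percentage points exceeded the spread within either genotype (exact permutation p = 0.333, the smallest possible; Benjamini-Hochberg adjusted p = 0.4 over 12 cluster and mark tests).

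HoxB was called over 27.1 and 20.8% in KO lists, against 12.6 and 9.49% in Control lists. HoxC was called over 24 and 23.3% in KO lists, against 9.98 and 18.4% in Control lists. HoxD was called over 27 and 26.8% in KO lists, against 11.6 and 17.2% in Control lists. In each of these clusters the groups did not overlap, and the KO lists were close to each other in HoxC and HoxD. The differences were 12.9 points in HoxB (2.17-fold), 9.45 points in HoxC (1.67-fold) and 12.5 points in HoxD (1.87-fold), each with an exact permutation p = 0.333 and an adjusted p = 0.4. HoxB contains a long, nearly empty stretch between Hoxb13 and Hoxb9, and the HoxB difference was 22.4 points when measured from Hoxb1 to Hoxb9. The HoxC difference was 5.26 points without Control replicate 1, and 6.05 points with every list held to its 6312 widest peaks, the length of the shortest.

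**Figure D1:**
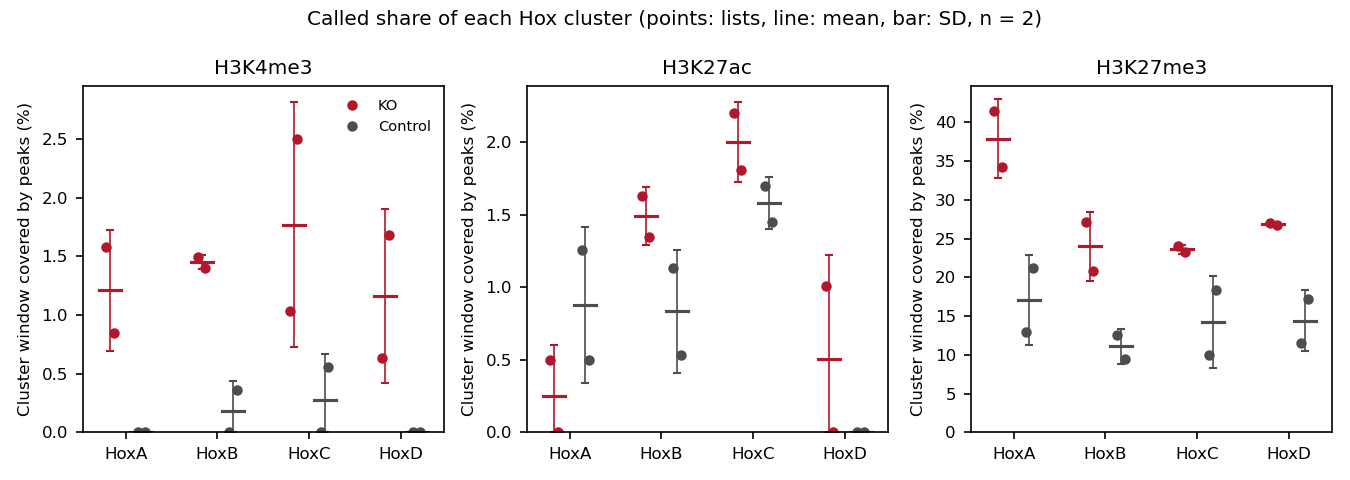
Percent of each Hox cluster covered by peaks for H3K4me3, H3K27ac and H3K27me3, on separate vertical scales. Points are lists (red KO, left; grey Control, right), horizontal lines are means and bars the SD (n = 2), drawn no lower than 0. For H3K27me3 the KO points lie above the Control points in all 4 clusters, from 41.5 and 34.3% against 13 and 21.2% in HoxA to 24 and 23.3% against 9.98 and 18.4% in HoxC.

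KO lists held more H3K27me3 peaks in the 4 clusters together, and wider ones. Across the 4 spans there were 99 and 89 H3K27me3 peaks in KO lists, against 64 and 84 in Control lists. Whole lists held 11349 and 11446 peaks in KO cells and 6312 and 7203 in Control cells, a 1.69-fold difference. By cluster the counts were not always higher: in HoxB, KO replicate 2 had 17 peaks and Control replicate 2 had 22. In HoxC both of these lists had 22. The cluster peaks covered 144300 and 125032 bp in KO lists and 58495 and 76651 bp in Control lists, a 1.99-fold difference. Median peak width was 838 and 930 bp in KO lists and 630 and 654 bp in Control lists. The widest peak measured 6567 and 9221 bp in KO lists, against 4463 and 3172 bp in Control lists. Both widths were larger in both KO lists.

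The Hox clusters did not take a larger part of the KO lists. Their share of all H3K27me3 bases was 1.43 and 1.19% in KO lists and 1.31 and 1.49% in Control lists, a difference of -0.0932 points within the spread of the lists (exact permutation p = 0.667). The 1.99-fold difference in the clusters thus stood beside a 2.15-fold difference of the whole lists, whose part in it was not tested. The direction of this small difference was turned by leaving out KO replicate 2 (0.0254 points) and by holding the lists to equal length (0.13 points).

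Replicate lists agreed over a minor part of the bases. The KO lists shared 56502 bp in the 4 spans, which is 39.2 and 45.2% of each list's called bases. The Control lists shared 16256 bp, which is 27.8 and 21.2% of theirs. All 4 lists shared 4704 bp. In KO cells, 31726 bp were called by both lists and by neither Control list, against 5441 bp called in both Control lists and in neither KO list.

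**Figure D2:**
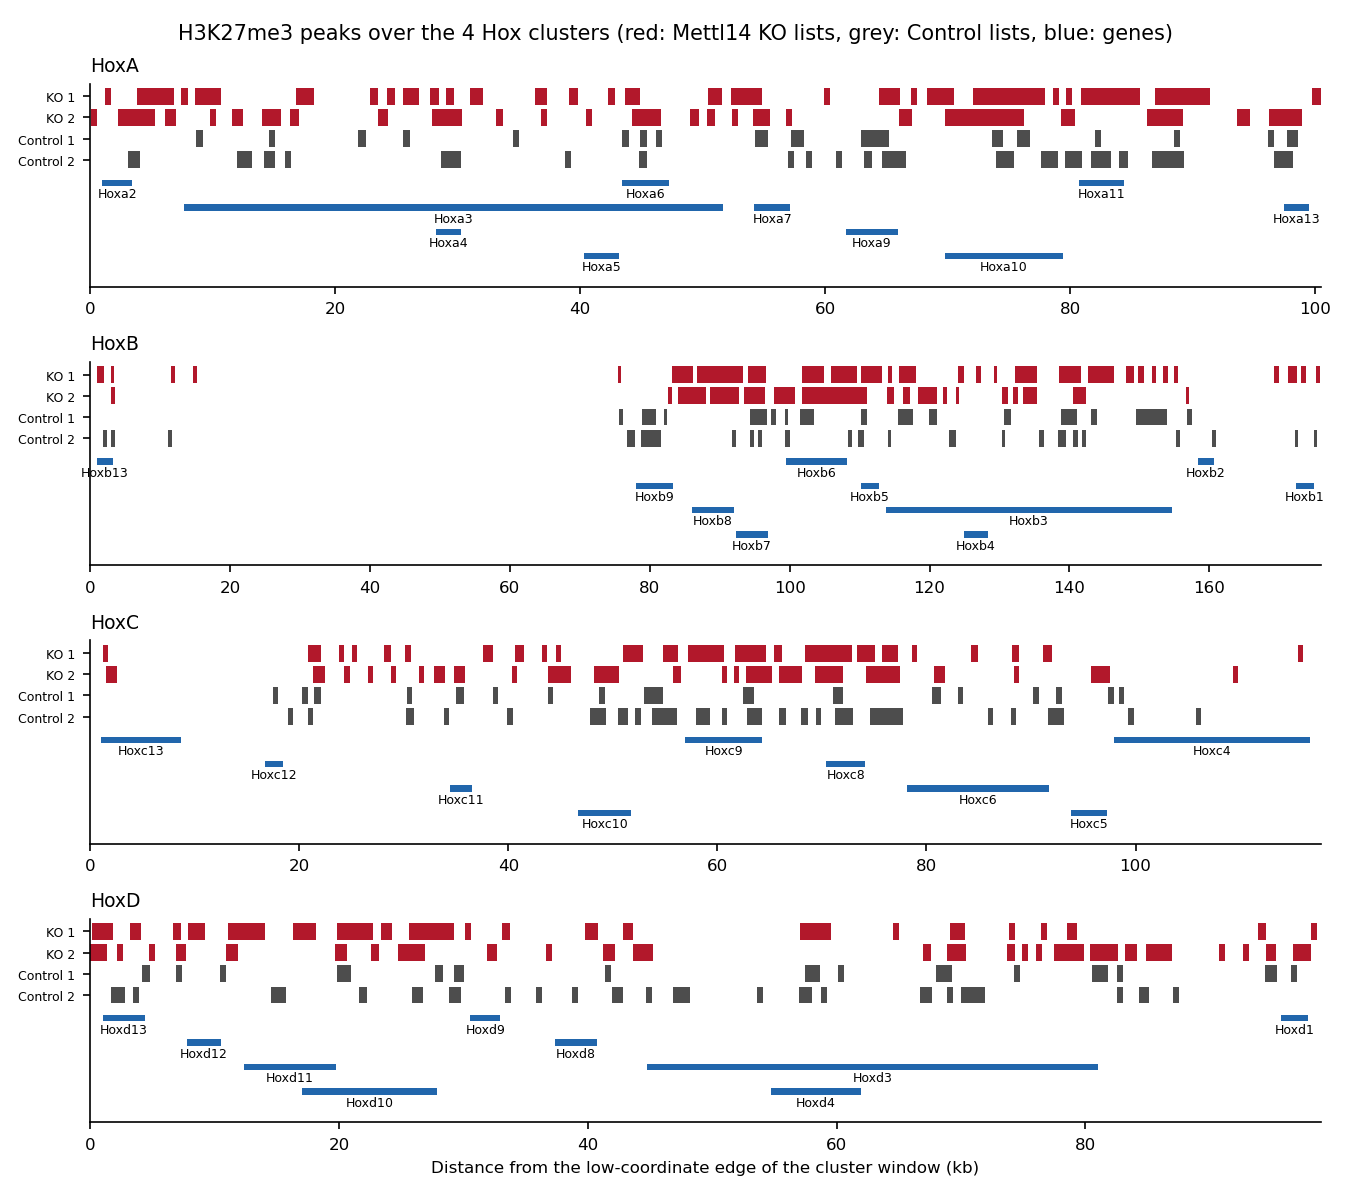
H3K27me3 peaks drawn to scale over the 4 clusters, with the distance from the low-coordinate edge in kb on the horizontal axis. Red bars are peaks of the 2 KO lists, grey bars those of the 2 Control lists below them, and blue bars are gene spans. The wide red bars over Hoxa10, Hoxb5 to Hoxb8 and Hoxc8 include the widest peaks, of 6567 and 9221 bp in the KO lists.

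For H3K27me3, gene spans were called more densely than all the DNA between them in each of the 4 lists. That DNA includes the long stretch between Hoxb13 and Hoxb9, nearly empty of H3K27me3, whose part in the contrasts below was not tested. The contrasts were not measured without it, so they do not show denser calls at genes than between close neighbours. Inside member spans, H3K27me3 covered 35.7 and 28.9% of bases in KO lists and 15.8 and 17.3% in Control lists. Between members it covered 21.3 and 20.9% in KO lists and 6.93 and 13.3% in Control lists. Both KO lists were above both Control lists in either compartment. H3K27ac went the other way, with 0.963 and 0.412% inside and 1.97 and 1.54% between members in KO lists, and 0.645 and 0.183% inside and 1.59 and 1.21% between members in Control lists.

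Nearly all Hox genes carried H3K27me3 in both genotypes. A peak that overlapped a gene's span plus 1 kb by at least 1 bp made that gene a called one. By list, 35 and 34 of the 38 members were called in KO cells and 31 and 33 in Control cells. Both KO lists called 33 members, against 13.9% of all protein-coding genes, and both Control lists called 28, against 8.33%. All 4 lists called 24 members, and each member was called in at least 1 list. Members called in both KO lists and neither Control list (KO-only) numbered 2, Hoxb4 and Hoxc13, where the share over all genes was 2.65%. Members called in the reverse way (Control-only) were also 2, Hoxb2 and Hoxc12, against 0.334% of all genes. KO-only members numbered 5 without Control replicate 1 and 6 without Control replicate 2, and with a flank of 5 kb there were 0 of either kind.

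Called bases separated the genotypes more often than calls did. At 18 members both KO lists held more H3K27me3 bases than either Control list, against 8.47% of all protein-coding genes. At 4 members, Hoxa9, Hoxb2, Hoxb9 and Hoxc12, both KO lists held fewer, against 0.64% of all genes. Many genes have no H3K27me3 call at all, and among the 6027 with a call in any list 30.8% were above and 2.32% below in this way. At the other members the lists overlapped or tied. The median member was called over 31.2% of its window in KO cells and 15.6% in Control cells, with a median difference of 14.9 points. Over the 6027 protein-coding genes with a call in any list, the medians were 1.79% in KO cells and 0.525% in Control cells, with a median difference of 0.9 points. Hox windows are short, with a median of 5722 bp against 30579 bp in those genes, and the part of gene length in this contrast was not tested.

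**Figure D3:**
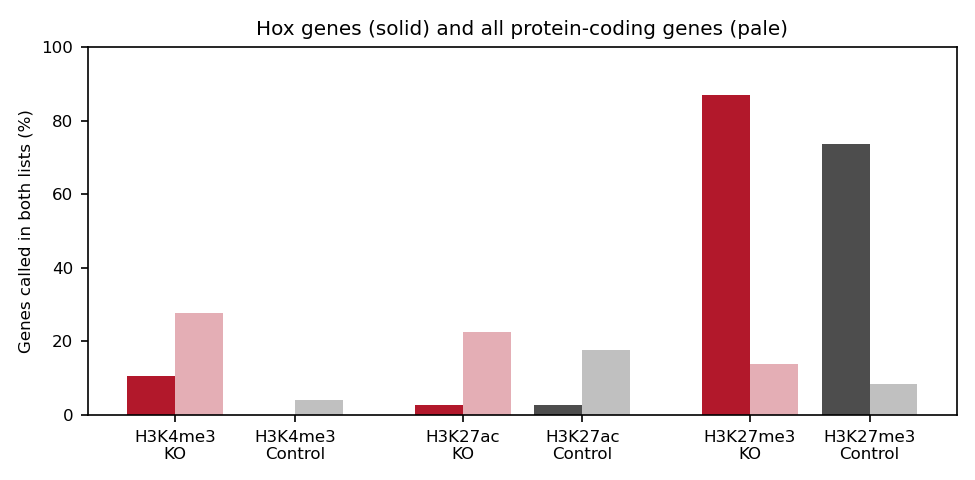
Share of genes called in both lists of a genotype (%) for each mark, KO bars left of Control bars. Solid bars are the 38 Hox genes and pale bars all 21887 protein-coding genes. For H3K27me3 the Hox bars stand above the pale ones, with 33 and 28 of 38 genes against 13.9 and 8.33%, while for H3K4me3 and H3K27ac they stand below, and the Control bar for H3K4me3 is at 0.

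Genes of the head end (paralogs 1 to 4, 11 members) were called over a median of 25.9% of their windows in KO cells and 11.6% in Control cells. Hoxb1, which specifies a hindbrain segment, had 2338 and 0 bp in KO lists and 0 and 1002 bp in Control lists. Hoxd1, which acts in pain-sensing neurons, had 501 and 2042 bp in KO lists and 1177 and 0 bp in Control lists. Each of them was high in 1 list of each genotype, so the groups overlapped. Hoxa2, the identity gene of the second pharyngeal arch, had 1088 and 2654 bp in KO lists and 0 and 1026 bp in Control lists. Hoxb2, its paralog in the hindbrain, had 0 and 0 bp in KO lists and 180 and 501 bp in Control lists. Hoxa2 and Hoxb2 thus stood on opposite sides, each without overlap, though Hoxa2 by a margin of few bases. At Hoxb2 the 180 bp of Control replicate 1 came from the end of a peak in the flank (chr11:96350110-96350811). A KO replicate 2 peak (chr11:96349949-96350449) ended just outside the window, and the Control peaks did not overlap each other.

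The group 3 genes pattern the neck and throat organs, and each has a long RefSeq span that encloses other members. Hoxa3 spans Hoxa4, Hoxa5 and Hoxa6, and had 14253 and 12788 bp in KO lists, against 4139 and 5513 bp in Control lists. Hoxb3 spans Hoxb4, and had 19383 and 11637 bp in KO lists, against 12084 and 5266 bp in Control lists. Hoxd3 spans Hoxd4, and had 5938 and 9277 bp in KO lists, against 4764 and 7278 bp in Control lists. Only at Hoxa3 were the groups apart, and peaks in these spans count for the enclosed genes too. Of the group 4 genes, which act at the hindbrain to spinal cord border, Hoxa4 had 1655 and 2402 bp in KO lists and 0 and 1650 bp in Control lists, a margin of few bases. Hoxb4, known for expanding blood stem cells, had 1774 and 304 bp in KO lists and 0 and 0 bp in Control lists. Hoxb4 was thus the KO-only gene of the group, but this rested on the edge of its window. In KO replicate 2 the call came from a 501 bp peak in the flank (chr11:96317070-96317570). A Control replicate 2 peak of 1033 bp (chr11:96316106-96317138) ended just outside the window. With a flank of 5 kb Hoxb4 was not KO-only. Hoxc4 had 501 and 1102 bp in KO lists and 1002 and 1002 bp in Control lists, and Hoxd4 had 2454 and 0 bp in KO lists and 1721 and 1884 bp in Control lists, both overlapping.

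The middle genes (paralogs 5 to 8, 11 members) pattern the trunk and held the widest separation in percent of the window called, at Hoxb8. Their median was 36.5% of the window in KO cells and 17.2% in Control cells, and at 7 of the 11 both KO lists were above both Control lists. Hoxb8, which acts in blood progenitors and the spinal cord, had 7395 and 7132 bp in KO lists, against 0 and 689 bp in Control lists. Its window of 7925 bp was thus called over 93.3 and 90% in KO lists and 0 and 8.69% in Control lists. Hoxb6 had 6591 and 9780 bp in KO lists and 2440 and 1258 bp in Control lists. Hoxb5, which acts in gut nerves and lung, had 3417 and 1833 bp in KO lists and 827 and 795 bp in Control lists. These 2 genes share the 9221 bp peak of KO replicate 2. Hoxb7 had 4616 and 4493 bp in KO lists and 2934 and 1822 bp in Control lists.

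Outside HoxB, Hoxc8, which sets forelimb motor neuron pools, had 5161 and 3557 bp in KO lists, against 916 and 2798 bp in Control lists. Hoxd8 had 1059 and 950 bp in KO lists and 315 and 501 bp in Control lists. Hoxa6 had 1541 and 2388 bp in KO lists and 1503 and 638 bp in Control lists. The groups were apart at these 3 genes, at Hoxa6 by few bases. Hoxa5, a lung and neck gene, had 1457 and 501 bp in KO lists and 501 and 0 bp in Control lists, a tie at 1 value. Hoxa7 had 1668 and 1945 bp in KO lists and 2062 and 501 bp in Control lists. Hoxc5 had 0 and 1824 bp in KO lists and 602 and 239 bp in Control lists. These did not separate, and neither did Hoxc6, which patterns the thorax, with 2918 and 1819 bp in KO lists and 2296 and 2735 bp in Control lists.

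The tail-end genes (paralogs 9 to 13, 16 members) had a median of 34.3% of the window in KO cells and 18.4% in Control cells. The group 9 genes did not share a direction. Hoxa9, a regulator of blood progenitors, had 1783 and 926 bp in KO lists and 2322 and 3091 bp in Control lists. Hoxb9 had 1103 and 897 bp in KO lists and 2474 and 3706 bp in Control lists. Hoxc9, which sets thoracic motor neurons, had 6653 and 4066 bp in KO lists and 1104 and 3576 bp in Control lists. KO values were thus below at Hoxa9 and Hoxb9 and above at Hoxc9, while Hoxd9 overlapped with 1136 and 777 bp in KO lists and 525 and 803 bp in Control lists. Hoxb9 lies beside Hoxb8, so the neighbours stood on opposite sides.

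The group 10 genes suppress ribs in the lumbar region. Hoxa10, also a uterine factor, had 8597 and 7710 bp in KO lists, against 2020 and 3699 bp in Control lists. Hoxd10 had 8779 and 3786 bp in KO lists and 1717 and 1639 bp in Control lists. Both were apart between genotypes, and Hoxc10 overlapped with 1821 and 2709 bp in KO lists and 501 and 2907 bp in Control lists. Among the group 11 genes, which act in kidney, forearm and sacrum, Hoxd11 had 5425 and 1523 bp in KO lists and 942 and 1244 bp in Control lists. Hoxa11 had 4952 and 747 bp in KO lists and 501 and 3618 bp in Control lists. Hoxc11 had 27 and 1621 bp in KO lists and 799 and 501 bp in Control lists, and like Hoxa11 it did not separate.

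In the last groups, Hoxc12 had 0 and 0 bp in KO lists and 501 and 501 bp in Control lists. Hoxd12, a limb gene, had 2293 and 1337 bp in KO lists and 1002 and 0 bp in Control lists. The group 12 genes thus differed in direction as well, but at Hoxc12 this rested on 1 peak of 501 bp per Control list. Those peaks did not overlap each other, and that of Control replicate 2 lay in the flank alone. Hoxd13, needed for digits, had 2511 and 2321 bp in KO lists and 642 and 1634 bp in Control lists. Hoxa13, its partner in digits and genital tract, had 718 and 2495 bp in KO lists and 1126 and 1523 bp in Control lists. Hoxb13, a tail and prostate gene, had 1512 and 501 bp in KO lists and 0 and 1301 bp in Control lists. Of these 3, Hoxd13 alone was apart. Hoxc13, needed for hair and nails, had 501 and 1058 bp in KO lists and none in Control lists, and is taken up again below.

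**Figure D4:**
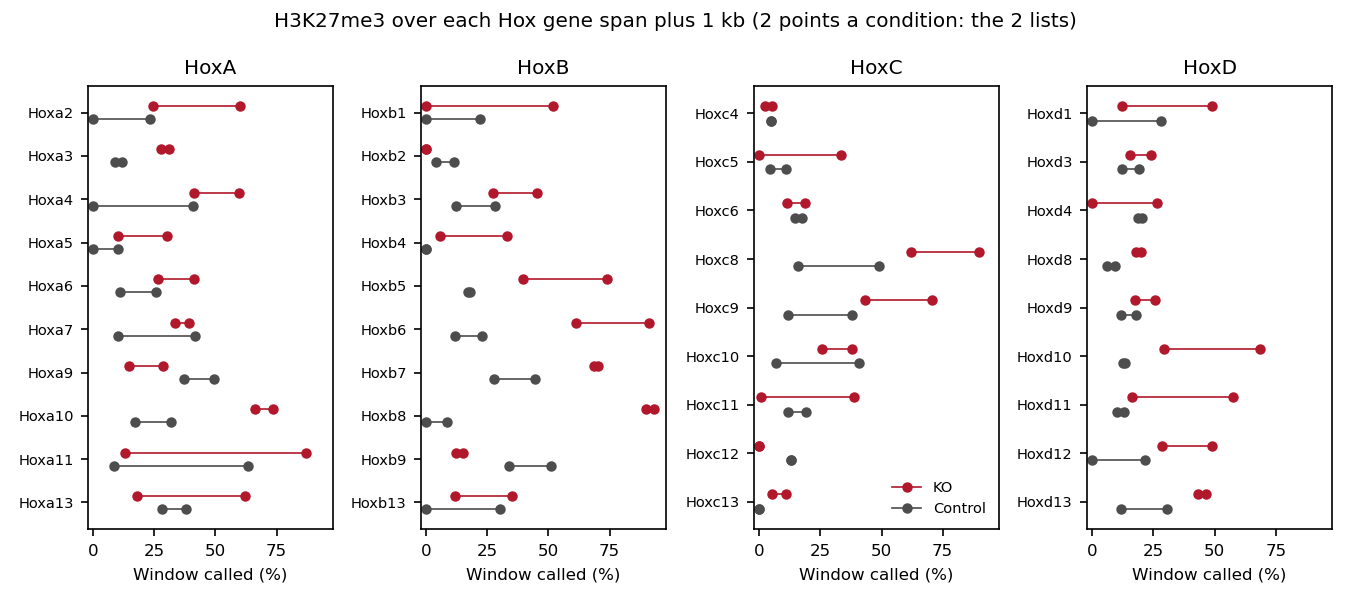
Percent of each Hox gene's window called for H3K27me3, genes ordered by paralog number within each cluster. Red points are the 2 KO lists (upper line of each gene) and grey points the 2 Control lists, joined by a line. Hoxb8 stands out with 93.3 and 90% in KO lists against 0 and 8.69% in Control lists, while Hoxa9 and Hoxb9 lie on the opposite side.

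H3K4me3 was sparse at Hox genes and was found mainly in KO cells. The lists called 6 and 12 members in KO cells, against 0 and 1 in Control cells. Both KO lists called 4 members, Hoxa3, Hoxa5, Hoxa6 and Hoxc13, where 27.6% of all protein-coding genes were called. Both Control lists called 0, where 4.09% of all genes were called. The same 4 members were KO-only, against 14.5% of all genes, and 0 were Control-only, against 0.101%. The share of Hox genes called was thus below that of all genes, and 1 peak per KO list accounts for 3 of the 4. Without KO replicate 1, 12 members were called and KO-only, since 1 KO list then sufficed. With every list held to equal length, 1 member was called in both KO lists and 1 was KO-only.

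That peak lay inside the Hoxa5 gene, within 1 kb of Hoxa6 and inside the long Hoxa3 span. It measured 1082 bp in KO replicate 1 (chr6:52203377-52204458) and 848 bp in KO replicate 2 (chr6:52203664-52204511), and neither Control list had it. At Hoxc13 the peaks measured 1212 bp in KO replicate 1 (chr15:102920917-102922128) and 1316 bp in KO replicate 2 (chr15:102921016-102922331), again with none in Control lists. Both sites were called at overlapping positions in the 2 KO lists. Elsewhere, Hoxb9 and Hoxd1 were called in KO replicate 1 alone. Hoxb3, Hoxb4, Hoxc9, Hoxc10, Hoxc12, Hoxd3, Hoxd8 and Hoxd9 were called in KO replicate 2 alone, and Hoxc4 in Control replicate 2 alone. The other 23 members had no H3K4me3 peak in any list.

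Over whole clusters, H3K4me3 covered little in either genotype. HoxA was called over 1.58 and 0.844% in KO lists and 0 and 0% in Control lists. HoxB was called over 1.49 and 1.4% in KO lists and 0 and 0.365% in Control lists. HoxC was called over 1.03 and 2.5% in KO lists and 0 and 0.555% in Control lists. HoxD completed the pattern with 0.634 and 1.68% in KO lists and 0 and 0% in Control lists, so that the groups were apart in all 4 clusters (exact permutation p = 0.333 and adjusted p = 0.4 for each). This separation moved with list length, since the difference was 0 in HoxA and HoxD with every list held to its 2431 widest peaks. The share of all H3K4me3 bases that lay in the clusters was 0.0742 and 0.1% in KO lists and 0 and 0.0829% in Control lists (exact permutation p = 0.667), with overlapping groups. The difference of 0.0459 points was 0.00445 points without Control replicate 1.

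Members with H3K4me3 and H3K27me3 both called were found in KO cells. Hoxa3, Hoxa5, Hoxa6 and Hoxc13 had both marks called in both KO lists, 4 members against 2.01% of all protein-coding genes. In Control cells 0 members did, against 0.0822% of genes. Among genes called for H3K27me3 in both KO lists, both marks were called at 4 of 33 members and 441 of 3052 protein-coding genes. The 1 H3K4me3 peak per KO list shared by Hoxa3, Hoxa5 and Hoxa6 overlapped H3K27me3 in KO replicate 1 alone. At Hoxc13 the marks overlapped in both KO lists. Within the clusters, 2 of 6 and 5 of 11 H3K4me3 peaks of the KO lists overlapped an H3K27me3 peak of the same replicate number, against 0 of 0 and 0 of 2 in Control lists. Lists from separate precipitations cannot show whether the marks sat on the same nucleosome or in the same cell. With equal list lengths 0 members had both marks in KO cells, and without KO replicate 1 there were 11.

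H3K27ac was rare at Hox genes in both genotypes. The lists called 6 and 2 members in KO cells and 4 and 1 in Control cells. Both KO lists called 1 member, Hoxc13, where 22.5% of all protein-coding genes were called, and both Control lists called 1, Hoxa3, where 17.8% were. Hoxc13 was the 1 KO-only member, against 2.75% of all genes, and 0 members were Control-only, against 0.946%. At Hoxc13 the peaks measured 677 and 501 bp in KO lists, with none in Control lists. Those KO peaks did not overlap each other, so the gene rather than a position was repeated. Without KO replicate 2, 6 members were called in KO cells, and without Control replicate 2, 4 were called in Control cells. Hoxc13 was thus the 1 member that was KO-only for all 3 marks, a pattern noticed after its values were seen. It ended under other settings, as H3K27ac had 0 KO-only members with peaks wider than 501 bp alone or with a flank of 5 kb, and H3K27me3 had 0 with that flank. In single lists, Hoxa6, Hoxd11 and Hoxd13 were called in KO replicate 1, Hoxc4 in KO replicate 2, and Hoxa13 and Hoxc6 in Control replicate 1. Hoxc9 was called in KO replicate 1 and Control replicate 1, and Hoxa3 also in KO replicate 1.

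Cluster coverage by H3K27ac did not separate the genotypes in the same direction everywhere. HoxA was called over 0.499 and 0% in KO lists and 1.26 and 0.499% in Control lists, a difference of -0.63 points (exact permutation p = 0.667, adjusted p = 0.727). HoxB was called over 1.63 and 1.35% in KO lists and 1.13 and 0.535% in Control lists. HoxC was called over 2.2 and 1.81% in KO lists and 1.7 and 1.45% in Control lists, and like HoxB it was higher in both KO lists (exact permutation p = 0.333, adjusted p = 0.4 for both). HoxD was called over 1.01 and 0% in KO lists and 0 and 0% in Control lists (exact permutation p = 1, adjusted p = 1).

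H3K27ac bases called in all 4 lists, 942 bp in all, lay outside the Hox genes, at a place picked out after its values were seen. In the stretch between Hoxb13 and Hoxb9, over the end of the lncRNA gene Gm53 (chr11:96251660-96264484), peaks measured 2875 and 2377 bp in KO lists, against 1994 and 942 bp in Control lists. They make up all the H3K27ac called in HoxB. H3K4me3 was called at the same place over 2116 and 1466 bp in KO lists and 0 and 643 bp in Control lists. No H3K27me3 peak touched Gm53 in any list, nor Mir196a-1 in the same stretch, so this absence was not particular to Gm53. The gap between Hoxc13 and Hoxc12 also had H3K27ac peaks in each of the 4 lists, but those of the 2 KO lists did not overlap each other.

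**Figure D5:**
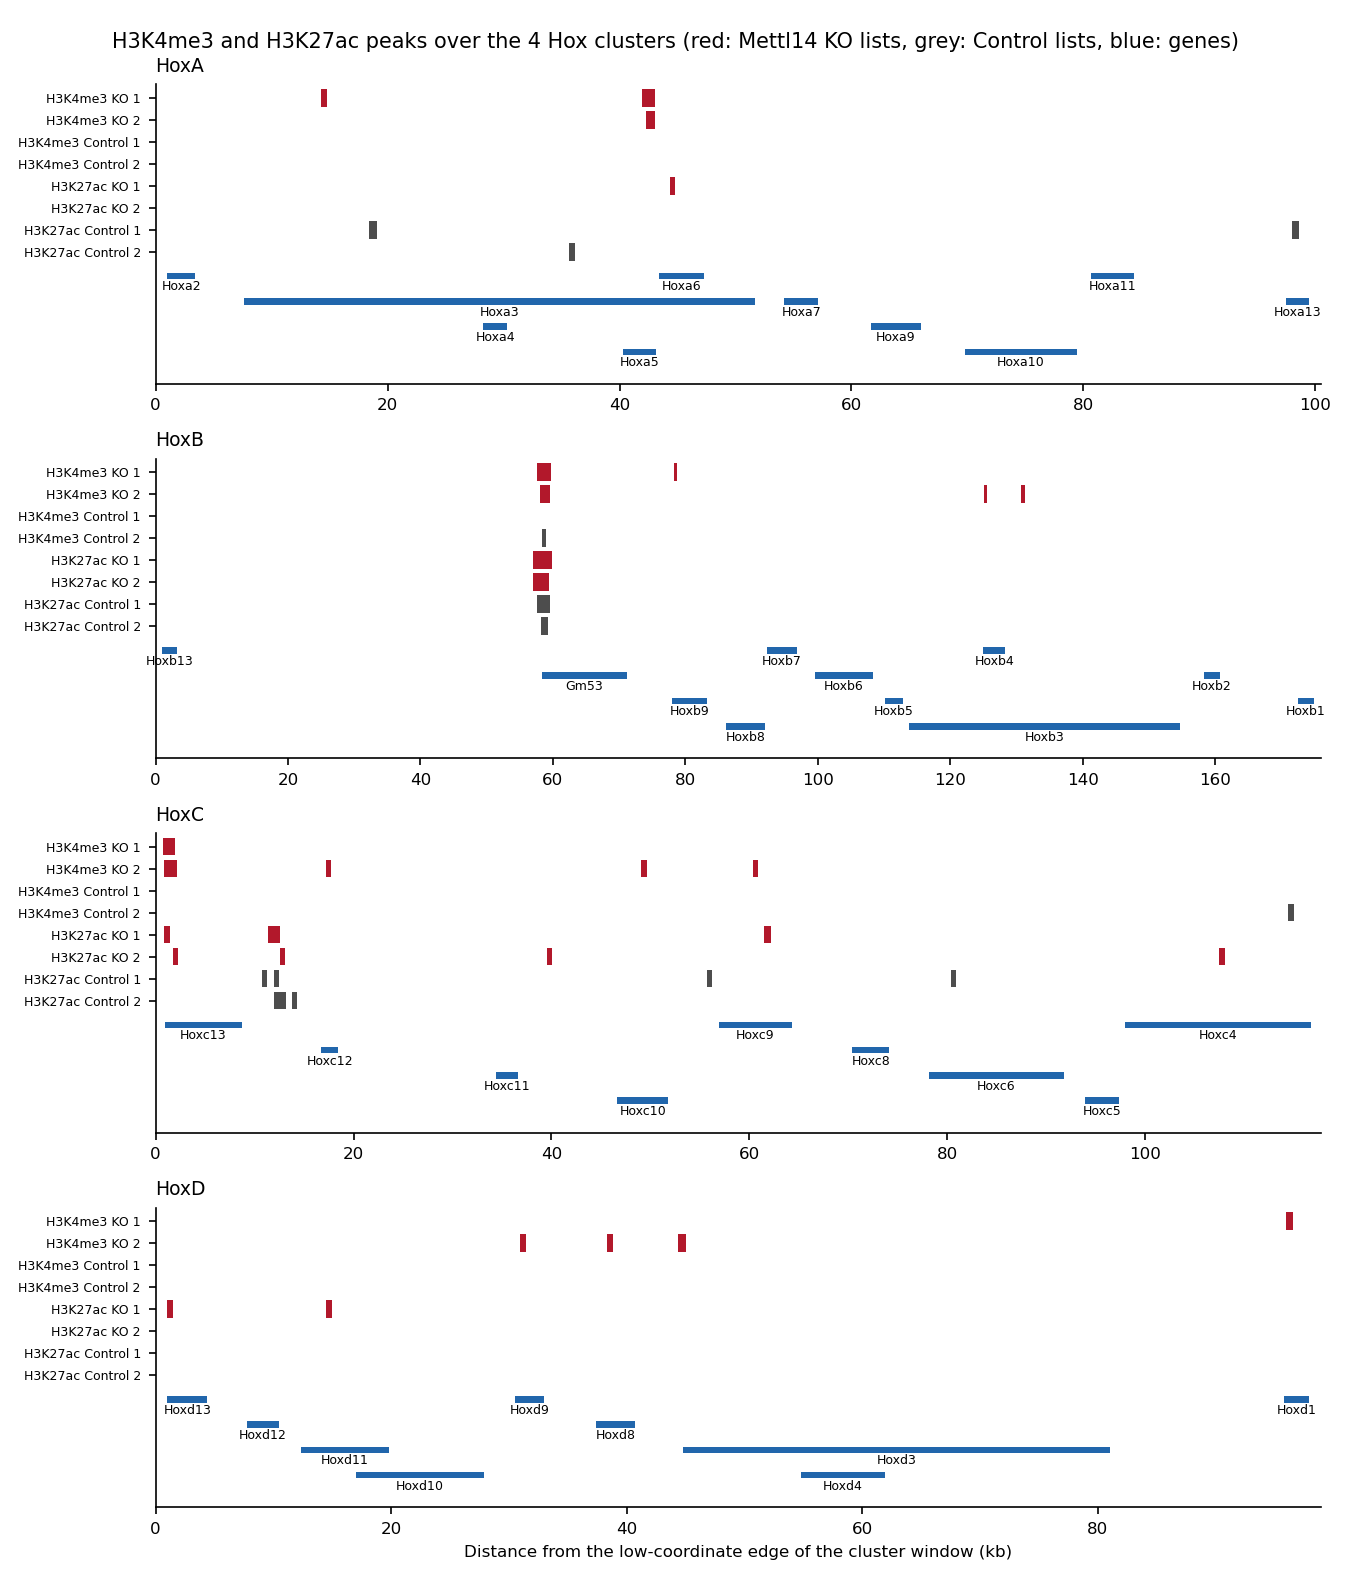
H3K4me3 and H3K27ac peaks over the 4 clusters, with the distance from the low-coordinate edge in kb on the horizontal axis. For each mark, red bars are the 2 KO lists above grey bars of the 2 Control lists, and blue bars are gene spans. Peaks are few, and the place called for H3K27ac in all 4 lists and for H3K4me3 in 3 of them is the end of Gm53, with H3K4me3 peaks of 2116 and 1466 bp in KO lists against 0 and 643 bp in Control lists.

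The clusters also hold microRNA genes that repress Hox transcripts, and their sequences group them. The mature 5p strands from RefSeq (GRCm38.p6) are printed 5′ to 3′ in lower case with the seed, bases 2 to 8, in capitals, to show the pairs that share one.
miR-10a-5p (HoxB): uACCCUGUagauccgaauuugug
miR-10b-5p (HoxD): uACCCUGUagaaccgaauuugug
miR-196a-5p (HoxB and HoxC): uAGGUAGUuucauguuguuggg
miR-196b-5p (HoxA): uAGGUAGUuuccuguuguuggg

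The miR-10 pair shares 1 seed and the miR-196 pair another. The gene Mir10a had 871 and 501 bp of H3K27me3 in KO lists and 0 and 974 bp in Control lists, within 1 kb on either side. Mir10b had 1679 and 0 bp in KO lists and 822 and 681 bp in Control lists. Mir196a-2 had 631 and 0 bp in KO lists and 1303 and 998 bp in Control lists. At none of them were KO lists above Control lists throughout, and at Mir196a-2 they were below. Mir196b had 1449 and 0 bp in KO lists and 0 and 0 bp in Control lists, and Mir196a-1 had none in any list. Of 16 listed noncoding genes of the clusters, 11 were called for H3K27me3 in both KO lists and 10 in both Control lists. Of the 16, 2 were KO-only. The shares over all protein-coding genes were 13.9, 8.33 and 2.65%, and no share over all noncoding genes was measured. Some of the 16, such as Hoxaas3 and Hoxb5os, overlap member genes and share their peaks. Hotair, a HoxC lncRNA studied as a partner of PRC2, had 1642 and 1058 bp in KO lists and 0 and 0 bp in Control lists. Hotairm1, at the HoxA edge, had 381 and 501 bp in KO lists and 0 and 0 bp in Control lists. For H3K4me3, Hotairm1 had 1743 and 1553 bp in KO lists and 501 and 0 bp in Control lists.

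Genes that flank the clusters were read in the same way. Evx1, a homeobox gene next to HoxA, had 6285 and 5440 bp in KO lists, against 2308 and 3216 bp in Control lists. Evx2, next to HoxD, had 3724 and 7365 bp in KO lists and 3838 and 2257 bp in Control lists, which overlapped. Of 13 listed neighbours, 4 were called in both KO lists (Evx1, Evx2, Skap1 and Smug1) and 3 in both Control lists (the same without Smug1). The shares over all protein-coding genes were 13.9 and 8.33%. For H3K4me3, 4 neighbours were called in both KO lists and 1 in both Control lists, against 27.6 and 4.09% of all protein-coding genes. Cbx1, a heterochromatin protein gene farther from HoxB, past Skap1 and Snx11, had 1477 and 1215 bp in KO lists and 0 and 0 bp in Control lists. Of all protein-coding genes, 14.5% were KO-only for H3K4me3 in this way.

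Other developmental gene families also carried H3K27me3 in both genotypes. It was called in both KO lists at 9 of 9 Pax genes and 8 of 10 ParaHox and related homeobox genes. In both Control lists the counts were 7 and 6. Over all protein-coding genes the shares were 13.9% for both KO lists and 8.33% for both Control lists. The TALE cofactors, which bind DNA together with Hox proteins, were called at 3 of 9 in both KO lists and 1 of 9 in both Control lists. They carried H3K27ac at 4 of 9 in both KO lists and 4 of 9 in both Control lists, against 22.5 and 17.8% of all protein-coding genes. Among them Pknox1 had 3387 and 3016 bp in KO lists and 3322 and 2192 bp in Control lists. Of 11 genes that induce Hox expression in the embryo (Cdx, retinoic acid and Wnt genes among them), 3 were called for H3K27me3 in both KO lists and 4 in both Control lists. Among these Cdx2, a direct activator of trunk Hox genes, had 5092 and 4577 bp in KO lists and 3959 and 4261 bp in Control lists. The gene T went the other way, with 0 and 0 bp in KO lists and 536 and 1675 bp in Control lists. It was the 1 Control-only gene of the 11, against 0.334% of all protein-coding genes. For H3K4me3, 2 of the 11 were called in both KO lists and 0 in both Control lists, against 27.6 and 4.09% of all protein-coding genes. The retinoic acid receptor gene Rara had 1970 and 2418 bp in KO lists and 0 and 0 bp in Control lists, where 14.5% of all protein-coding genes were KO-only.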

How the data were processed

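Histone ChIP-seq of H3K4me3, H3K27ac and H3K27me3 in Mettl14 CKO and Control mESCs gave 12 deposited peak lists, grouped by the mark, genotype and replicate in the titles. The 4 input libraries and any Mettl3 samples were left aside. Formaldehyde-fixed chromatin was precipitated with a histone kit and with added spike-in material, per the labels' protocols. The build was mm10 and the tools named are HOMER, SAMtools, Bowtie2 2.4.1, Trimmomatic 0.38 and CASAVA, per the submitters' processing notes. For the peak caller, its settings and the use of inputs and spike-in: not given in the sources used here. The authors' deposited score column is a constant and was not used; positions were, and the narrowest peak is 501 bp.

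Genes came from RefSeq GRCm38.p6. Spans and windows carry 1 kb on either side, and an overlap needs 1 bp. All 38 members are accounted for, with the values of each library for those called in both lists of a genotype; the results of 1 further Hox gene and of some list genes are not reported here. The members and gene lists were chosen with earlier results of these data known. Up to 6 genes of any other list were to be named, by called width; Gm53, the Hoxc13 to Hoxc12 gap, the microRNA genes and the lncRNA and neighbour genes named were picked after their values were seen. Covered percent and share of a list were compared over the 6 assignments of lists to genotypes (exact permutation test, two-sided), with Benjamini-Hochberg adjustment over the 12 cluster tests. Member counts have no test and stand beside the share over all protein-coding genes. The counting was tested on simulated data. Alternatives changed the gene flank, the overlap, list length, peak width, cluster flank, HoxB span and the lists used. Computations used Python 3.11.15 with NumPy 2.4.6 and matplotlib 3.10.9.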

Additional observations from a re-analysis of the deposited data

How the results depend on the processing

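No list gives heights or read numbers, a longer list calls more of everything, and with 2 lists a genotype the exact permutation test used cannot pass. The equal-length setting keeps the widest peaks of each list, so it selects on width. Over the alternatives run, all 4 H3K27me3 cluster differences stayed positive; with lists of equal length they were 17.3 points in HoxA, 12.9 in HoxB, 6.05 in HoxC and 9.46 in HoxD. At equal length the H3K4me3 difference was 0 in HoxA and 0 in HoxD, H3K4me3 was called in both KO lists at 1 member and KO-only at 1, members with both marks in KO cells numbered 0, H3K27me3 was KO-only at 1 and H3K27ac Control-only at 1, and the H3K27me3 share difference turned to 0.13 points. With peaks wider than 501 bp alone, H3K27ac gave 0 KO-only members, 0 in both KO lists and 0 in both Control lists and 0 points in HoxD, H3K27me3 gave 0 Control-only members, members with both marks in KO cells numbered 2, and the H3K4me3 share difference turned to -0.00666 points. With a flank of 5 kb, H3K27ac gave 0 KO-only members, 4 in both KO lists and 3 in both Control lists, and H3K27me3 gave 0 KO-only and 0 Control-only members. Control-only H3K27me3 members numbered 0 with a flank of 0 kb and 1 with an overlap of 250 bp. Measured from Hoxb1 to Hoxb9, the H3K27ac difference in HoxB was 0 points. Reasons for these shifts were not tested.

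Leaving out 1 list at a time, fewer calls are required, so counts grow by construction. H3K4me3 members were 4 to 12 KO-only, 0 to 1 Control-only, 4 to 12 in KO and 0 to 1 in Control lists, the 12 without KO replicate 1. H3K27ac members were 1 to 4 KO-only, 0 to 2 Control-only, 1 to 6 in KO lists (6 without KO replicate 2) and 1 to 4 in Control lists (4 without Control replicate 2). H3K27me3 members were 2 to 6 KO-only, 5 without Control replicate 1 and 6 without Control replicate 2. Members with both marks numbered 4 to 11 in KO cells (11 without KO replicate 1) and 0 to 1 in Control cells. The H3K27ac difference in HoxD ran from 0 (without KO replicate 1) to 1.01 points. The H3K4me3 difference in HoxC ran from 0.752 (without KO replicate 2) to 2.22 points, and in HoxD from 0.634 (without KO replicate 2) to 1.68 points. The H3K27ac difference ran from -1.01 to -0.249 points in HoxA, 0.359 to 0.957 in HoxB and 0.234 to 0.621 in HoxC. The share difference ran from 0.00445 (without Control replicate 1) to 0.0873 points for H3K4me3, from -0.212 to 0.0254 points for H3K27me3 and from -0.000932 (without KO replicate 1) to 0.0146 points for H3K27ac.

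The replicate numbers are shared by the genotypes, but same-numbered lists did not deviate together (correlations of -0.00015, 0.00855 and 0.0144 over 21887 genes). The replicate block leaves each difference and its direction as they were by construction, so it changes the p alone. For H3K27me3 in HoxA the 20.8 points had a sign-flip p = 0.5, the smallest that 2 pairs allow in an exact permutation.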
